A study of Homo sapiens with 3 samples.

Results

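MATR3 (matrin 3), an RNA-binding protein of the nuclear matrix, was mapped on RNA by PAR-CLIP in HEK293 cells, a line derived from human embryonic kidney. In PAR-CLIP, cells take up a photoreactive uridine analogue, the protein is crosslinked to RNA and immunoprecipitated, and crosslinked uridines read as C in place of T. The cells were wild type and untreated, and the 3 libraries, labelled as biological replicates, are of one group, without a control library. The regions described here are the read clusters whose annotation class in the authors' deposited tables is processed transcript. They numbered 1988 of 133088 clusters in replicate 1, 1984 of 131679 in replicate 2 and 1824 of 124040 in replicate 3, or 5796 of 388807 in all. Each replicate was kept separate, and clusters of one gene are not independent replicates.

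A processed transcript, in the vocabulary of gene annotation, is a spliced RNA for which no open reading frame is annotated. Such RNAs come from coding genes as alternative noncoding isoforms, from transcribed pseudogenes and from long noncoding genes. Many of them begin or end far outside the coding isoforms of the same gene, so their introns can cover sequence that no coding isoform contains. MATR3 is known to bind pyrimidine-rich stretches within introns, and a motif described for it reads ATCTT in DNA letters. No RNA abundance was measured in the tables used here, so more binding and more RNA cannot be told apart for any gene below.

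The clearest recurrence within the class was at 39 sites, in 34 gene names, where a stretch of at least 1 nt was covered by processed-transcript clusters of all 3 replicates. They took 134 clusters. The following sequences are the clusters with most reads at 8 of the 10 sites with the highest lowest-replicate read count. They are examples, and the sites in TPCN2 and PPP1R16A are not printed. Capitals mark bases covered in all 3 replicates. Sequences are the transcribed strand, 5′ to 3′, from the deposited tables, and they equal hg38. The RBMX cluster lies at chrX:136860862-136861011 on the minus strand, the ZNF800 cluster at chr7:127367047-127367139 on the minus strand, and the CTC-487M23.8 cluster at chr5:112883006-112883216 on the plus strand. The DNAJB4 cluster is at chr1:77989123-77989251, plus, and the ZNF767P cluster at chr7:149569827-149569988, minus. The last 3 are on the plus strand, AC004980.7 at chr7:76564077-76564119, STAG3L5P at chr7:100341620-100341674 and ITFG2 at chr12:2833007-2833097.
RBMX: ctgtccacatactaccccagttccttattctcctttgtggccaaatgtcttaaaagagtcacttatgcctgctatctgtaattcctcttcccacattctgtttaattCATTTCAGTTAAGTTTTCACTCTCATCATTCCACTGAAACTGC
ZNF800: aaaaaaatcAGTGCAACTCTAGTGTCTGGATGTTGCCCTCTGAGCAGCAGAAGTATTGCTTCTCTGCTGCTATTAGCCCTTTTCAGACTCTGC
CTC-487M23.8: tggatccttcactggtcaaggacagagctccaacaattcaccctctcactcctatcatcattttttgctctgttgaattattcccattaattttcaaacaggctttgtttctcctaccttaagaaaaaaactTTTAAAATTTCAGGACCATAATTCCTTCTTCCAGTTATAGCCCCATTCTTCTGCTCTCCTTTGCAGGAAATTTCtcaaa
DNAJB4: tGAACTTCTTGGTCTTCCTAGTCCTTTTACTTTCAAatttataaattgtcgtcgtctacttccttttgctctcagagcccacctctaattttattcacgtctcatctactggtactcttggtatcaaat
ZNF767P: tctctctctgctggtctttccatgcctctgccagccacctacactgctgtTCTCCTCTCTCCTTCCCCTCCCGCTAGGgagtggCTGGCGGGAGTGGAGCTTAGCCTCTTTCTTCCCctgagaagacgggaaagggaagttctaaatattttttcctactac
AC004980.7: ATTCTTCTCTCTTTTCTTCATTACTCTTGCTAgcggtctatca
STAG3L5P: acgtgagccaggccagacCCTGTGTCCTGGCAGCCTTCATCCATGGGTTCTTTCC
ITFG2: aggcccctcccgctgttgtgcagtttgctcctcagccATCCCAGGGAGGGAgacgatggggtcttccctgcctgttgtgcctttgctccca

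None of these 8 sequences holds ATCTT on the transcribed strand, while the leading cluster of the PPP1R16A site, which was among the 10 and is not printed, does. T made up from 25.5% of the bases, in STAG3L5P, to 48.8%, in AC004980.7, where the capital stretch holds an 18 nt run of C and T only. The longest such run was 23 nt, in ZNF767P, and the shortest was 8 nt, in ZNF800, STAG3L5P and ITFG2. In ZNF767P the shared bases form separate stretches inside one cluster, and in ITFG2 only 14 nt were shared. Each of the 8 clusters lay outside every exon of its strand in GENCODE release 44, and none has a further exact copy on the main chromosomes of hg38. In exon position the 8 do not stand for all 10 sites, because the site in TPCN2, which is exonic, is not printed. Near-identical copies were not searched.

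The remaining pair of the 10 sites were in TPCN2, a lysosomal ion channel gene, and PPP1R16A, a phosphatase regulatory subunit. The TPCN2 site, chr11:69089700-69089909 on the plus strand, was the only one of the 10 inside an exon. That exon is of a coding transcript, and all 210 nt of the site are annotated as UTR. The site held 91, 122 and 89 reads in replicates 1, 2 and 3, and its lowest replicate was above that of every other site. Reads with T-to-C made up 72.5%, 68.0% and 67.4% of these, below the class as a whole, at 87.2%, 85.9% and 86.5%. The site on RBMX, which encodes the nuclear RNA-binding protein hnRNP G, held 81, 88 and 61 reads with T-to-C in 70.4%, 77.3% and 83.6%. Every replicate gave at least 61 reads to each of these sites.

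At ZNF800, a zinc finger gene, the site held 48, 42 and 78 reads. At the clone-named gene CTC-487M23.8 it held 54, 27 and 51, and at DNAJB4, which encodes a co-chaperone of the DnaJ family, 28, 25 and 23. At ZNF767P the first replicate stood apart, with 87 reads against 29 and 22. PPP1R16A had 25, 31 and 22 reads, AC004980.7 had 19, 23 and 19, and STAG3L5P, a pseudogene related to the cohesin gene STAG3, had 24, 21 and 19. ITFG2, a subunit of a complex that restrains mTORC1, had 35, 54 and 17, of which 12, 26 and 4 were distinct. The share of T-to-C reads varied widely among the sites of this paragraph. It ran from 42.1%, at AC004980.7 in replicate 3, to 100%, at ZNF767P in replicate 2 and STAG3L5P in replicate 3. ITFG2 had 68.6%, 48.1% and 94.1%. Of all 39 sites, 25 had at least 10 reads in every replicate, the median of the lowest count was 11, 4 touched an exon, 6 lay opposite a coding transcript, and the leading cluster of 4 held ATCTT.

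These sites were the exception in the class. The share of processed-transcript clusters overlapped on the same strand by a cluster of any class in another replicate, averaged over the other replicates, was 11.7%, 12.1% and 13.3%. Only 2.54% ± 0.18 met a cluster in each of the other replicates, and 77.8% ± 1.61 met none (SD, n = 3). Intron clusters, the class that holds most MATR3 clusters, gave 11.8%, 11.8% and 12.4%. The within-replicate difference was 0.37 percentage points ± 0.48 (SD, n = 3; exact two-sided sign-flip test p = 0.50). It was negative in replicate 1 and positive in the other replicates, so a difference was not resolved. For this test over 3 replicates the smallest p possible is 0.25, so no such test here, in the main comparisons or the alternatives, could pass 0.05.

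Whether a cluster was found again went with its reads. Of processed-transcript clusters with 4 to 5 reads, 6.38% ± 0.72 were found in another replicate. The share was 8.31% ± 0.98 at 6 to 9 reads, 14.9% ± 1.80 at 10 to 19 and 27.3% ± 2.04 at 20 or more (SD, n = 3). Intron clusters with the same reads gave 6.06%, 8.32%, 14.4% and 26.7%. The values of both classes lay within 1 SD of each other in every range of reads. Most clusters of the class were thinly covered, with a median of 9, 8 and 9 reads. The median of distinct reads was 3 in every library, and 36.6% ± 6.48 of the clusters rested on 1 or 2. Copies of one molecule may be counted among the reads.

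**Figure D1:**
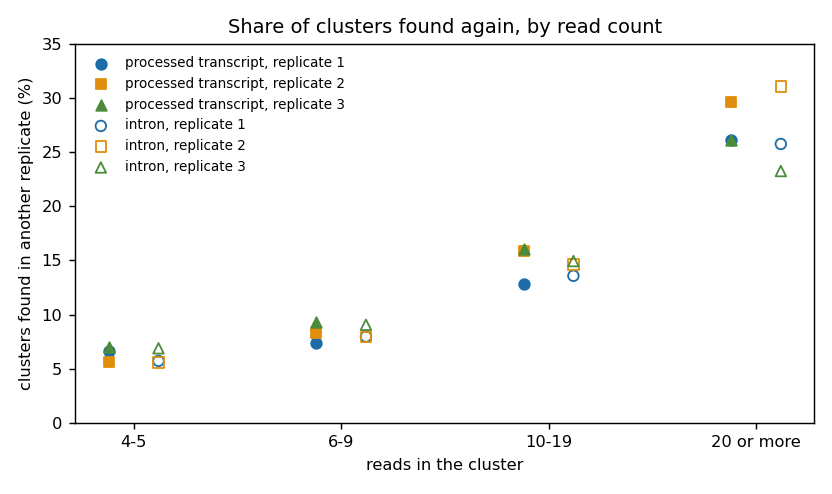
Percent of clusters found in another replicate (y axis) by reads per cluster (x axis, 4 ranges), with 1 point per replicate, filled for processed-transcript and open for intron clusters. The means of both classes rise with reads, from 6.38% and 6.06% at 4 to 5 reads to 27.3% and 26.7% at 20 or more.

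Processed-transcript clusters held 25168, 21992 and 22840 reads. They made up 1.49%, 1.51% and 1.47% of all clusters and 1.53%, 1.46% and 1.49% of all reads in clusters, with SDs of 0.018 and 0.033 percentage points over the replicates. The median cluster was 39, 39 and 36 nt long against 39, 40 and 37 nt for introns, a difference of -0.67 nt ± 0.58 (exact sign-flip p = 0.50).

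In the share of converted reads the clusters were within 2 percentage points of intron clusters and well above 3′ UTR clusters. Of the reads in processed-transcript clusters, 87.2%, 85.9% and 86.5% carried T-to-C, against 87.6%, 86.8% and 88.0% in intron clusters. The difference was negative in every replicate, at -0.40, -0.87 and -1.51 percentage points (mean -0.93 ± 0.56; SD, n = 3; exact sign-flip p = 0.25). Counted instead as conversion events per T position, the difference was positive in every replicate, at 0.36 ± 0.19, so the direction depends on the measure. Against 3′ UTR clusters, at 78.3% ± 0.74, processed-transcript clusters were higher by 8.23 points ± 0.53, in all 3 replicates (exact sign-flip p = 0.25). Introns of lincRNA genes, at 87.4% ± 2.37, and antisense transcripts, at 88.0% ± 1.36, were in the same range as the processed transcripts, and lincRNA exons were at 81.6% ± 0.85. Per T position, conversion events made up 11.8% ± 0.57 in lincRNA exons and 11.3% ± 0.40 in processed transcripts, so that order also depends on the measure. Every read carried T-to-C in 61.1%, 56.8% and 62.2% of processed-transcript clusters, and the lowest cluster had 33.3%, 28.6% and 25.0%. The deposited tables hold clusters with at least 4 reads and at least 2 conversion locations.

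GC content was 48.5%, 49.5% and 49.1% in processed-transcript clusters, 1.82 percentage points ± 0.43 above introns, and higher in 3 of 3 replicates (SD, n = 3; exact sign-flip p = 0.25). T made up 30.3% ± 0.76 of their bases. ATCTT occurred 2.16, 1.83 and 1.99 times per 1000 nt of the transcribed strand, a difference of -0.19 ± 0.10 from introns, negative in 3 of 3 replicates (exact sign-flip p = 0.25). It was present in 195, 168 and 151 clusters, or 8.85% ± 0.83. Introns of lincRNA genes, with 1.95 ± 0.14 per 1000 nt and a GC content of 48.7% ± 0.90, were within 1 SD of the processed transcripts in both measures, while 3′ UTR clusters had 1.69 ± 0.19 per 1000 nt.

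**Figure D2:**
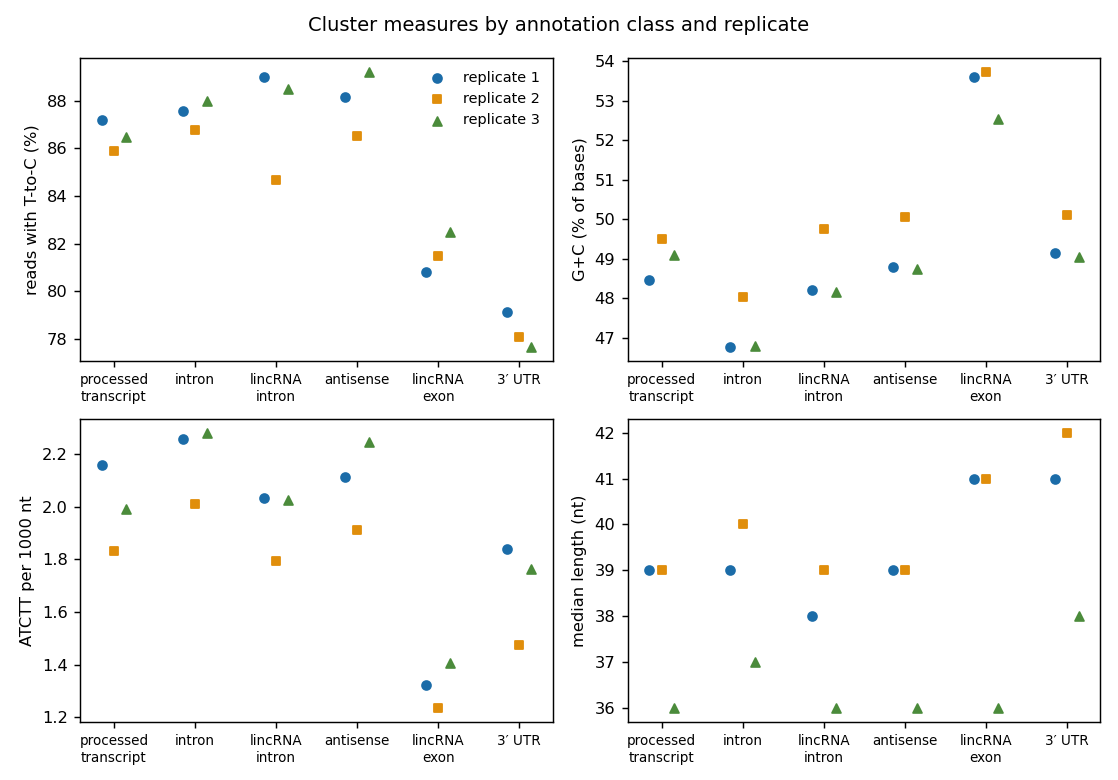
Share of reads with T-to-C (percent), GC content (percent of bases), ATCTT per 1000 nt and median length (nt) of clusters by annotation class (x axis), in 4 panels with 1 point per replicate and axes that do not start at 0. Processed transcripts sit near introns, lincRNA introns and antisense transcripts in T-to-C reads, at 87.2%, 85.9% and 86.5%, and above the 3′ UTR, at 78.3%.

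Although a processed transcript is a mature RNA by name, most clusters of the class lay inside annotated transcripts and touched no exon. Set against GENCODE release 44 on the same strand, 65.5% ± 1.69 of the clusters were inside noncoding transcripts only and touched no exon. A further 18.9% ± 1.08 were inside a coding transcript and touched no exon. Exons of noncoding transcripts alone took 10.8% ± 0.61 and exons of coding transcripts 4.69% ± 0.77 (SD, n = 3). Clusters outside any transcript of their strand numbered 0, 0 and 2. The authors' annotation release is not given in the sources used here and may differ from release 44.

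Exon overlap in all was 14.8%, 16.1% and 15.6%, against 6.33%, 6.82% and 6.99% of intron clusters. The share was higher in each replicate, by 8.80 percentage points ± 0.45 on average (SD, n = 3). The comparison class carries the label intron, so this difference describes the labels and has no test here. By transcript type, 57.3% ± 1.96 of the clusters overlapped a noncoding isoform of a coding gene (GENCODE type protein coding CDS not defined), 36.0% ± 1.51 a lncRNA transcript and 9.38% ± 0.33 a transcribed unprocessed pseudogene. A cluster can overlap several types. Only 24.6% ± 1.66 lay within the span of a coding transcript of their strand, against 99.8% of intron clusters, a difference that is likely to follow the labels of the classes.

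**Figure D3:**
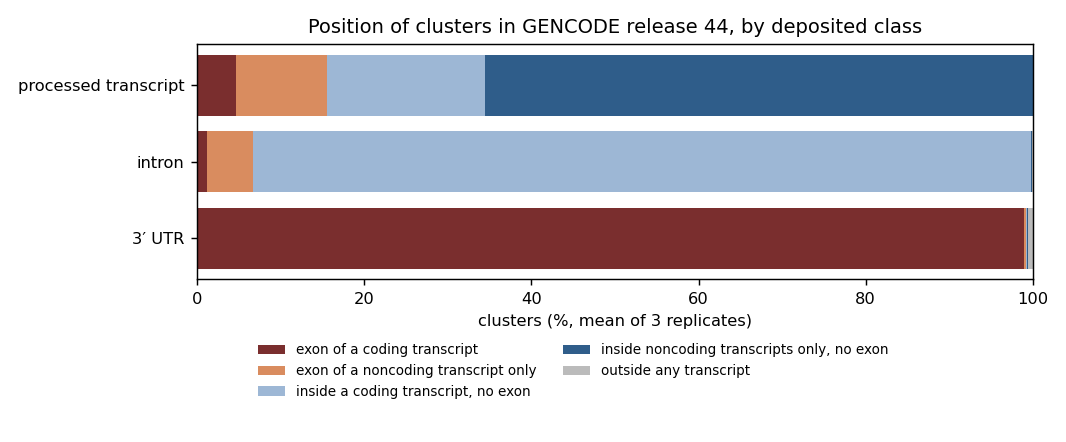
Stacked bars of the percent of clusters (x axis, mean of 3 replicates) in each position relative to GENCODE release 44 transcripts of the same strand (colours), for processed-transcript, intron and 3′ UTR clusters (rows). Processed-transcript clusters are mostly inside noncoding transcripts with no exon, at 65.5%, where introns have 0.141%.

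Processed-transcript clusters that touched an exon numbered 295, 320 and 284. In every replicate they had a lower T-to-C share and a higher GC content than the rest of the class. In them 84.0% ± 2.29 of reads carried T-to-C, against 87.1% ± 0.41 in clusters without an exon, a difference of -0.62, -3.87 and -4.75 percentage points (exact sign-flip p = 0.25). The share was 81.5% ± 2.68 in exons of coding transcripts and 85.3% ± 2.03 in exons of noncoding transcripts only. GC content was 53.0% ± 0.91 against 48.2% ± 0.40, higher in every replicate, by 4.76 points ± 0.56 on average (exact sign-flip p = 0.25). The share found in another replicate was 13.0% against 12.3%, a difference of 0.70 points ± 0.51 (SD, n = 3; exact sign-flip p = 0.25). With exonic clusters set aside in both classes, the GC difference between processed transcripts and introns was 1.29 points ± 0.51 and the T-to-C difference -0.53 points ± 0.26. A like gap was seen in lincRNA genes, with a GC content of 53.3% ± 0.65 in exon clusters and 48.7% ± 0.90 in intron clusters.

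The clusters fell in 672 gene names, 471, 471 and 438 in replicates 1, 2 and 3. All 3 replicates had clusters in 279 of the names, 2 replicates in 150 and a single replicate in 243. There were 207 names with a single cluster and 79 with at least 20. For 269 names, or 40.0%, every cluster under the name belonged to this class. Reads per gene correlated between replicates with Spearman's rho of 0.738, 0.757 and 0.697 over the 334, 325 and 328 names that both replicates shared, across genes, which are not independent, and among names already chosen for having reads in both. The 12 names with most reads, as the geometric mean of reads per 1000000 reads in clusters, held 23.5% ± 1.77 of the class's reads. Every one of the 12 had a cluster in all 3 replicates by the rule.

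Coding genes supplied the largest group. By name, 429 of the 672 were protein-coding in GENCODE release 44, 155 of them with clusters in all 3 replicates, and they held 55.9% ± 1.61 of the clusters and 54.4% ± 0.99 of the reads. Their processed-transcript clusters lay mainly beyond the coding sequence. Relative to the first and last coding base of the gene, 48.2% ± 1.55 were downstream, 42.2% ± 0.89 upstream and 9.68% ± 0.68 in between (SD, n = 3). Of the 153 coding genes with at least 5 such clusters over the replicates, 71 had every cluster downstream, 55 every cluster upstream, 16 every cluster in between and 11 a mixture. Clusters between the coding bases can carry the authors' intron or coding label instead, so these positions are likely to follow the labels of the classes. No other class was set beside them, and the same limit holds for the single genes below.

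RPL27A, a protein of the large ribosomal subunit, had the most reads among the coding genes. Its processed-transcript clusters held 883, 510 and 904 reads in 38, 32 and 40 clusters, or 488 ± 132 reads per 1000000 (SD, n = 3). All 110 lay downstream of the last coding base at chr11:8685803, between 8690271 and 8714207 on the plus strand, within the span of noncoding isoforms of RPL27A, which release 44 extends to 8714759. The coding sequence itself spans only 8682814 to 8685803. Of the 110 clusters, 98 lay opposite DENND2B, a coding gene of the minus strand, and no cluster of any class was called on the minus strand in that window in any replicate. They came at 15.3 ± 1.74 clusters per 10 kb, and 3 of the 110 touched an exon.

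RCL1, needed for ribosomal RNA processing, showed the same arrangement, with 350, 394 and 603 reads in 22, 33 and 40 clusters. Replicate 3 was the highest. All 95 lay downstream of the last coding base at chr9:4860272, none touched an exon and none was opposite a coding transcript. The introns of RCL1 held a further 70, 53 and 75 clusters in the authors' intron class. ZNF800 had 275, 288 and 324 reads, the narrowest spread of the 12 names at 190 ± 22.4 per 1000000. Its 56 clusters were all downstream, and 26 of them touched an exon.

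TULP4, a member of the tubby-like family, showed the reverse arrangement. Its 497, 322 and 290 reads fell in 48, 33 and 29 clusters, all 110 of them upstream of the first coding base, which in release 44 lies 81.8 kb from the gene's start. None touched an exon. Reads with T-to-C made up 91.0% over the 3 replicates, the highest share of the 12 names. Introns of TULP4 in the authors' intron class held 18, 25 and 18 clusters. CLK3, a kinase that phosphorylates SR splicing factors, was mixed, with 264, 332 and 264 reads, 9 clusters upstream, 18 within and 17 downstream of the coding sequence. Of its 44 clusters, 20 touched an exon and 35 lay opposite EDC3, and the minus strand of the window held 16, 19 and 13 clusters.

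**Figure D4:**
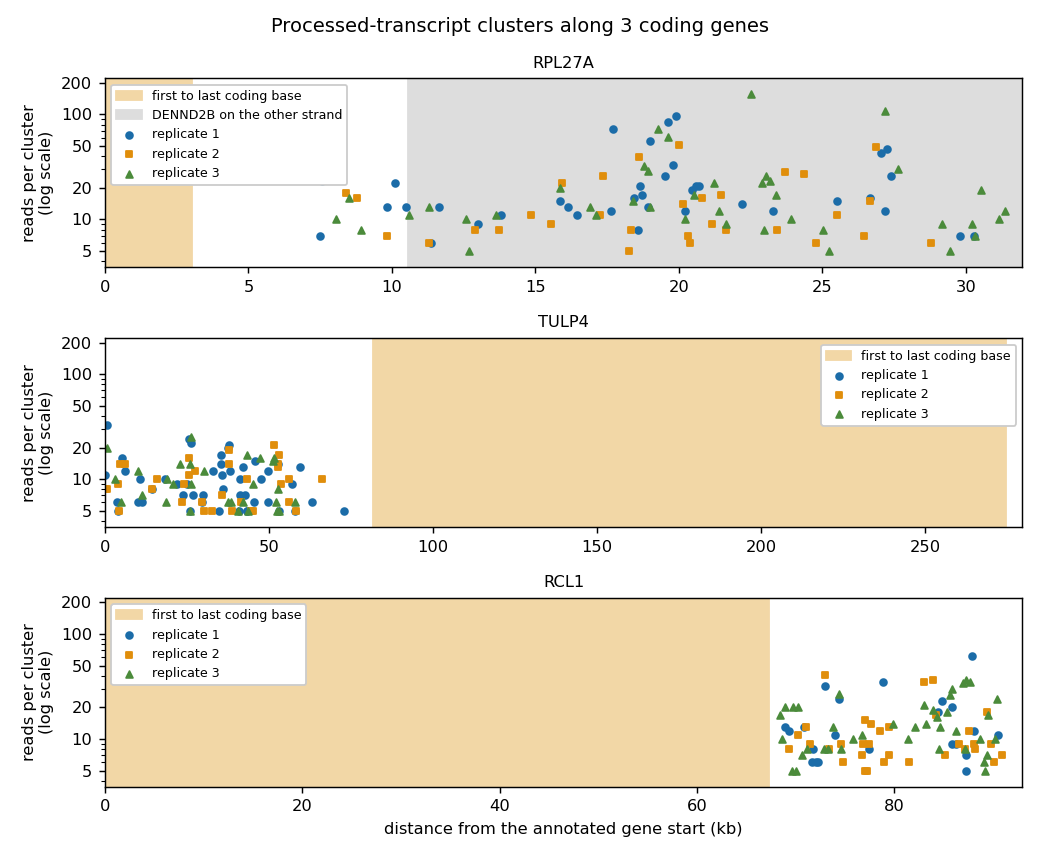
Reads per processed-transcript cluster (y axis, log scale) against distance from the annotated gene start in kb (x axis) for RPL27A, TULP4 and RCL1, with 1 point per cluster, coloured by replicate, the span from first to last coding base shaded, and DENND2B of the other strand in grey. Points lie beyond the coding span in RPL27A and RCL1 and before it in TULP4, in all 3 replicates. Clusters within the coding span can carry other class labels and are not shown.

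Names of transcribed pseudogenes were the next large group. The 110 names with a pseudogene entry in GENCODE release 44, 53 of them in all 3 replicates, held 21.3% ± 0.91 of the clusters and 21.7% ± 0.58 of the reads. This is a grouping by name. Release 44 often also has a longer lncRNA at such a locus, and all clusters of ZNF767P, CRYBB2P1, SUZ12P1 and SMG1P3 lay within a gene it types as lncRNA. Over all 110 names, 85.0% ± 0.48 of the reads carried T-to-C, and 13.0% ± 0.92 of the clusters were found in another replicate. ZNF767P, a zinc finger pseudogene, had most reads of any name, with 518, 702 and 1135 in 34, 44 and 46 clusters, or 507 ± 216 per 1000000. Replicate 3 was the highest, and a single cluster at chr7:149616153-149616684 held 474 of its reads. Without the top cluster of each replicate the level was 366 ± 91.3 per 1000000. All 124 clusters under this name belonged to the class, and 14 touched an exon.

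CRYBB2P1, a beta-crystallin pseudogene on chromosome 22, had 529, 478 and 312 reads. SUZ12P1, a pseudogene of the Polycomb subunit SUZ12, had 563, 403 and 241, and SMG1P3, a pseudogene of the kinase SMG1 of nonsense-mediated decay, had 359, 426 and 267. In all 3 of them replicate 3 was the lowest, where ZNF767P was highest. Pseudogene reads can be hard to place where a parent gene is near-identical. None of the 83 SUZ12P1, 66 SMG1P3 or 107 CRYBB2P1 clusters had a further exact copy of its whole sequence on the main chromosomes of hg38. Across the class such copies were found for 4, 3 and 3 clusters, all of them the clusters of CD99P1, which lies in the pseudoautosomal region that the X and Y chromosomes share. Near-identical copies were not searched, and single reads are shorter than the clusters.

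The other names were 12 of another type in release 44, and 121 with no match there, which held 20.3% ± 0.98 of the clusters. Of the 121, 33 are older symbols in RefSeq, coding genes among them, and many of the others are clone names. RP11-33B1.1, on chromosome 4, had 556, 421 and 381 reads, and 52 of its 99 clusters lay opposite PDE5A, a cyclic GMP phosphodiesterase gene. MMP24-AS1, now MMP24OS and typed as coding in release 44, had 843, 204 and 452 reads and the widest relative spread of the 12 names, at 314 ± 189 per 1000000. All 61 of its clusters lay opposite MMP24, which encodes a membrane-type metalloproteinase, and the strand of MMP24 held 0, 0 and 1 clusters in the window. RP11-97O12.7, on chromosome 15, had 507, 249 and 473 reads, and all 59 of its clusters lay inside a coding transcript of their strand.

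**Figure D5:**
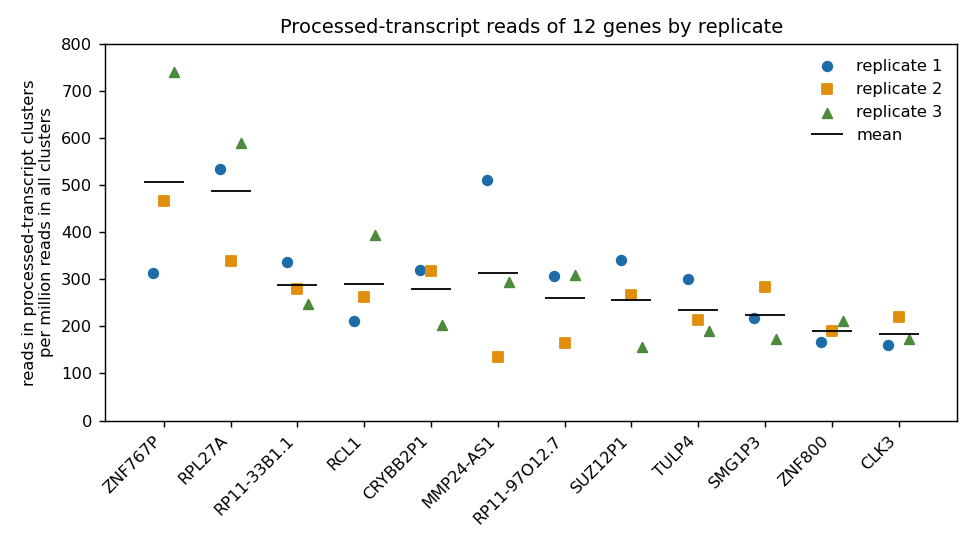
Reads in processed-transcript clusters per 1000000 reads in all clusters (y axis) for the 12 named genes (x axis), with 1 point per replicate and a line at the mean. ZNF767P and RPL27A lead at 507 and 488, and MMP24-AS1 has the widest relative spread, 314 ± 189.

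Some clusters lay opposite a coding gene. Clusters that lay on the other strand of a coding transcript, outside or inside one of their own strand, made up 19.7% ± 1.28 of processed-transcript clusters and 1.67%, 1.74% and 1.72% of intron clusters. The differences were 17.4, 17.2 and 19.5 percentage points, with a mean of 18.0 ± 1.27 (SD, n = 3; exact sign-flip p = 0.25). Almost every intron cluster lay inside a coding transcript of its own strand, so other classes give a nearer comparison. The share was 35.1% ± 0.83 in antisense clusters, 4.86% ± 0.44 in lincRNA introns, 4.70% ± 0.99 in lincRNA exons and 6.82% ± 0.20 in 3′ UTR clusters. The processed transcripts thus fell between antisense and lincRNA clusters. The difference from introns was as large without the name with most reads, at 18.5 points ± 1.37. Within the class the share was 22.7% ± 1.43 in coding gene names and 7.46% ± 0.89 in pseudogene names.

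Of all 13557 names with a cluster of any class, 4.96% had one of this class, which is the background for lists of genes. Hosts of small RNAs, which are spliced noncoding transcripts in many cases, were set against it. Of 19 small nucleolar RNA host genes listed, 14 had a MATR3 cluster of any class and 1 had processed-transcript clusters. That gene was TAF1D, a subunit of the RNA polymerase I initiation factor, with 28, 21 and 14 reads in 2 clusters per replicate. Of 20 microRNA host and long nuclear noncoding genes, 14 had a cluster of any class and 0 had one of this class. With 14 genes in each list, neither count is set apart from that background. Clusters of the other genes were counted under other labels. PVT1, for example, had 262, 290 and 301 clusters of any class, with lincRNA intron as the leading label.

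Each replicate had its highest cluster in another gene. In replicate 1 it was a MMP24-AS1 cluster at chr20:35267052-35267392 with 201 reads. In replicate 2 it was a cluster at chr6:32965983-32966257 with 142 reads, named for HLA-DMA, a chaperone of antigen loading, and in replicate 3 a FAM229A cluster at chr1:32362794-32363535 with 546. Reads with T-to-C made up 75.6%, 71.1% and 70.9% of these, below the value of the class in the same replicate.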

How the data were processed

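MATR3 PAR-CLIP was analysed in 3 biological replicates of HEK293 cells. Per the file headers, the authors deposited 1 table of clusters per replicate, called separately, with read, distinct read and conversion counts that were not normalised. The T-to-C fraction of reads, deposited from 0 to 1, was multiplied by the read count and summed. The authors' conversion specificity, per the file headers, is on a log10 scale and served only to describe the tables, whose lowest values were 0.602, 0.602 and 0.601. The build hg38 is named in the submitters' processing notes. The aligner, caller and annotation release are not given in the sources used here. Libraries held 1649124, 1506682 and 1532602 reads in clusters, and the depth of the whole libraries is not known.

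Clusters of the class processed transcript were compared with intron clusters within each replicate by an exact two-sided sign-flip permutation test on the 3 differences. Its smallest p is 0.25, and the code was tested on simulated data. Overlap means at least 1 nt on the same strand. Positions, transcript types and gene types came from GENCODE release 44. Exact copies were searched on both strands of the main chromosomes of hg38, without alternate or unplaced sequences, and ATCTT on the transcribed strand only. Of 672 gene names, 551 matched GENCODE, 33 an older symbol in RefSeq and 88 neither. Tools were Python 3.11.15, numpy 2.4.6, pandas 2.3.3, scipy 1.17.1 and matplotlib 3.10.9.

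The genes named were the 12 with the largest geometric mean of reads in the class per 1000000 reads in clusters, among names found in all 3 replicates, plus members of the small RNA host lists. The sites were the 10 with the highest lowest-replicate reads, and sequences were printed for up to 8 of them. Other names were chosen after their values were seen. The class, lists and rules were chosen with earlier results of these data known. Alternatives were stricter cluster sets, other measures and overlaps, another comparison class and leaving out each replicate. Chosen after seeing the data were the results on exact copies, on coding transcripts of either strand and on exonic clusters. The position relative to the coding sequence was not among the results set beforehand.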

Additional observations from a re-analysis of the deposited data

How the results depend on the processing

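Of the alternatives, 87 values stayed as in the main setting, 8 differences turned sign, 2 fell to 0 and 6 shares or counts moved. A difference stayed where it kept its sign, though not always its size. A share stayed where it was within 1 SD of the main value, and a count where its ratio to the main count was small. The T-to-C difference was -0.14 points as a mean over clusters, with replicate 1 positive, the difference in exact copies 0.017 at 3 or more distinct reads, and that in length -1.33 nt at 3 or more conversion locations. At 3 or more distinct reads, 196 gene names had clusters in all replicates. With clusters of the 3′ UTR as the comparison in place of introns, the signs turned for T-to-C reads (8.23 points), GC content (-0.41), ATCTT per 1000 nt (0.30), the share found in another replicate (-0.99) and exon overlap (-83.7). The T-to-C difference also turned as conversion events per T position (0.36) and was 0 as a median over clusters. With at least 3 conversion locations the difference in exact copies turned to -0.019 from 0.053 points. With at least 3 distinct reads the difference in median length was 0. The class made up 1.47% of clusters at the median read count or above, 1.46% at 3 or more distinct reads and 1.71% of clusters with an annotation class. Gene names in all 3 replicates fell from 279 to 170 at the median read count, 154 at 3 conversion locations and 175 with at least 2 clusters per replicate. The causes were not tested, beyond the smaller cluster sets themselves.

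Leaving out each replicate in turn, the share found in another replicate differed from introns by -0.320 to 1.21 points, and was negative without replicate 3. The other ranges kept their sign, with -1.19 to -0.64 points for T-to-C reads, 1.58 to 1.99 for GC, -0.23 to -0.14 for ATCTT, 8.54 to 8.94 for exon overlap and 17.3 to 18.4 for the share opposite a coding transcript. They were -1.0 to -0.50 nt for length and 0.030 to 0.073 points for exact copies. Samples could not be paired between groups because the 3 replicates form a single group, with no second group to pair by number. Differences between classes were taken within each replicate, so the sign-flip tests paired the classes by replicate. Clusters with under 4 reads were not in the tables, so weaker sites were not detectable.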

Other observations

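Genes below the 12 with most reads, chosen after their values were seen, showed the same kinds of host. ZNF536, a zinc finger gene, had 272, 261 and 254 reads in 27, 29 and 26 clusters of the class, or 168 ± 4.58 per 1000000, a narrow spread between replicates (SD, n = 3). CNIH3, an auxiliary subunit of AMPA receptors, had 269, 283 and 213 reads, and all 58 clusters under its name were of this class. It held 2 of the 39 sites shared by all replicates. CFL1, the actin-severing protein cofilin, had 224, 208 and 177 reads, and NBR2, the noncoding neighbour of BRCA1, had 146, 176 and 160, with all of its 33 clusters opposite a coding transcript.

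Some genes of RNA metabolism, picked after their values were seen, were among the 34 names with a recurrent site. METTL16, an RNA methyltransferase, had a site at chr17:2406967-2407220 on the minus strand with 84, 16 and 55 reads, in an exon of a noncoding transcript. EXOSC3, a subunit of the RNA exosome, had a site at chr9:37791030-37791104 on the minus strand with 10, 22 and 19 reads. Of these, 2, 5 and 5 were distinct. PRPF40B, a splicing factor, had one at chr12:49578156-49578306 on the plus strand with 13, 41 and 29. There only 12 nt were covered in every replicate. Replicates differed in reads at the METTL16 site, which was lowest in replicate 2. No enrichment of such genes was tested.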
